A study of Mus musculus with 8 samples.

Results

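Of 6 listed mouse globin genes, Hba-x, Hbb-y, Hbb-bh1, Hba-a1, Hbb-bt and Hbb-bs, the arrays gave a value of their own to 2, the embryonic genes Hba-x and Hbb-y. A gene counted as measured when a probe set was annotated to it and to no other gene. One probe set was annotated to Hbb-bh1 and Hbb-bh2 together and so named neither. No probe set with a single symbol carried the names of the adult genes Hba-a1, Hbb-bt and Hbb-bs, which were not analysed here. Hba-x and Hbb-y had 1 probe set each, among 16348 probe sets and 14683 named genes in all. The values below therefore describe the embryonic side of the alpha and beta globin families and contain no measurement of adult globin.

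Haemoglobin is a tetramer of alpha-like and beta-like globin chains, each of which holds a haem group. Mouse Hba-x encodes the embryonic alpha-like chain zeta and Hbb-y the embryonic beta-like chain epsilon-y, and both are expressed at high level in the primitive red cells that arise in the yolk sac. The alpha-like and beta-like genes lie in separate clusters on different chromosomes. Both clusters depend on distant enhancers and on erythroid factors that include GATA1, KLF1, NFE2 and TAL1, and the later change from embryonic to adult chains involves repressors such as BCL11A and SOX6.

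Total RNA was measured on Affymetrix arrays in 8 samples of mouse blood precursors, 2 in each of 4 groups: 12 h without doxycycline, 12 h with it, 24 h without it and 24 h with it. The cell line of all 8 was iSOX7, made from Ainv18 embryonic stem cells so that doxycycline switches on the transcription factor SOX7, and the untreated groups carry the inducible gene too. FLK1+ cells from embryoid bodies were grown in liquid blast culture, and the CD41+, CD34- cells sorted from it were then cultured for the stated time. Cells given doxycycline without the transgene were not analysed here, the precursors represent 1 cell line differentiated in culture, and nothing in the sources says that replicates were separate cultures, so the spread behind each p-value may be technical.

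All values are log2 expression as deposited, and a difference of 1 is a 2-fold change. Sox7 lay at 6.82 to 7.17 on the 4 arrays without doxycycline and at 10.57 to 10.96 on the 4 arrays with it. Itga2b, which encodes the sorted antigen CD41, lay at 9.27 to 10.89. Cd34, whose protein was selected against in the sort, lay at 9.18 to 10.78, against array medians of 6.40 to 6.61. Replicate 2 at 24 h without doxycycline had a narrower spread over probe sets than the other 7 arrays, with an SD of 2.355 against 2.433 to 2.517. Differences of Hba-x are also given without it. Counts of calls for doxycycline at 24 h were lower without it, and are given at the end as ranges over each array left out. A marker list for mesenchyme and smooth muscle averaged 6.59 to 6.86 in replicate 1 and 7.77 to 7.94 in replicate 2. Lists for endothelial, megakaryocyte and myeloid cells averaged lower in replicate 2 within each group.

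The promoters of both measured genes are shown because these are the only globins with a value of their own and they belong to separate clusters. Each run is the 250 bases before the annotated start, read 5′ to 3′ on the gene's strand, from RefSeq on GRCm38.p6. Capitals mark matches on either strand to short words of known factor families. GATA words were AGATAA, which is the usual form, with TGATAA as its variant in the first letter, AGATAG as its variant in the last letter, and TGATAG as its variant in both. The word CACCC was searched for KLF factors, and the word CCAAT for the promoter box of that name. TATA-type words were TATAAA, which is the usual form, with AATAAA as its variant in the first letter. SOX words were the shorter AACAAT, which many of these factors bind, with the longer AACAAAG as an alternative. No match overlapped another.
Hba-x, chr11:32276350-32276599, plus strand: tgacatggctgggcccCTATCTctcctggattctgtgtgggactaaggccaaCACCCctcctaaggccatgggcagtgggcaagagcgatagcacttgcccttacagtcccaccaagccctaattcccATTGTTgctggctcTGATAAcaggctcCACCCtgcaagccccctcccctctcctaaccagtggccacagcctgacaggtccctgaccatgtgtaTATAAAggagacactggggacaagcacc
Hbb-y, chr7:103853208-103853457, minus strand: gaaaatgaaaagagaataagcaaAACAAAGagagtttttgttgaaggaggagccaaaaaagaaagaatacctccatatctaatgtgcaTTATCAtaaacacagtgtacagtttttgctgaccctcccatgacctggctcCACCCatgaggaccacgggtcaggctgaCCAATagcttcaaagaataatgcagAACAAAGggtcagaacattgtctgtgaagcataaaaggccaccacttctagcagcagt

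Both windows held a GATA match, a CACCC match and a SOX match. Over 32851 mouse promoter windows of the same length, 26.5% held a GATA match, 52% a CACCC match, 33.8% a CCAAT match, 26.5% a TATA-type match and 13.8% a SOX match. In Hba-x the SOX letters AACAAT stood on the opposite strand, from 122 to 117 bases before the start, and a GATA match followed at 108 to 103 bases. Hbb-y held the letters AACAAAG at 2 places, from 227 to 221 and from 58 to 52 bases before the start, with CCAAT at 83 to 79 bases. CCAAT was matched only in the Hbb-y window and TATAAA only in the Hba-x window. These matches describe the sequence and say nothing of whether a factor binds there.

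Both globins lay at the top of what the arrays recorded. Hbb-y had the highest mean of all 16348 probe sets, 13.69, and was the brightest probe set on 6 of the 8 arrays. Hba-x had a mean of 13.35, with 2 probe sets above it, Hbb-y and the cytoskeletal actin gene Actb at 13.51. Over the 8 arrays Hbb-y ranged from 13.40 to 13.85 and Hba-x from 12.99 to 13.76. The highest value on each array was 13.60 to 13.85, and on 6 of the 8 arrays it was that of Hbb-y itself. Whether it is a ceiling of the measurement was not tested, nor how far levels this high limit a rise or a fall.

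Hba-x was lower with doxycycline in every replicate pair, by an amount that did not pass the test in the fit without pairing. At 12 h its level was 13.54 and 13.42 without doxycycline and 13.27 and 13.12 with it. At 24 h it was 13.76 and 13.60 without doxycycline and 13.09 and 12.99 with it. Samples with doxycycline lay below those without it at both times, with no overlap, and the 2 samples at 24 h with doxycycline were the lowest of all 8. Of all probe sets, 22.3% were lower without overlap at 12 h, 16.2% at 24 h and 6.61% at both times. The share that was lower in every replicate pair was not counted.

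At 12 h Hba-x differed by -0.29 ± 0.14 (SE, n = 2 per group; 1.22-fold, limma adjusted p = 0.673). The difference at 24 h was -0.64 ± 0.14 (1.56-fold, limma adjusted p = 0.0891), with a 95% interval from -0.97 to -0.31. In a model with terms for doxycycline and time, which compares 4 arrays with 4, it was -0.46 ± 0.11 (limma adjusted p = 0.0556). Deviations of same-numbered samples went together across probe sets, and with the replicate number as a block the difference over both times was -0.46 ± 0.10 (limma adjusted p = 0.0301) and that at 24 h -0.64 ± 0.12 (adjusted p = 0.0294), both past the threshold of 0.05. In bulk RNA, fewer cells that express a gene and less of its RNA per cell cannot be told apart.

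Hbb-y showed no such difference. Its level at 12 h was 13.72 and 13.40 without doxycycline and 13.77 and 13.54 with it. At 24 h it was 13.85 and 13.68 without doxycycline and 13.77 and 13.75 with it. The groups overlapped at both times, and replicate 2 without doxycycline at 12 h was the lowest sample. The difference was 0.10 ± 0.17 at 12 h with a 95% interval from -0.29 to 0.48, and -0.01 ± 0.17 at 24 h with an interval from -0.39 to 0.38 (limma adjusted p = 0.983 and 0.996). Over both times it was 0.05 ± 0.11 with an interval from -0.20 to 0.29 (limma adjusted p = 0.926). An adjusted p of this size does not show that Hbb-y was unaffected, and the intervals cover the spread between arrays only, not any limit set by the top of the range.

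**Figure D1:**
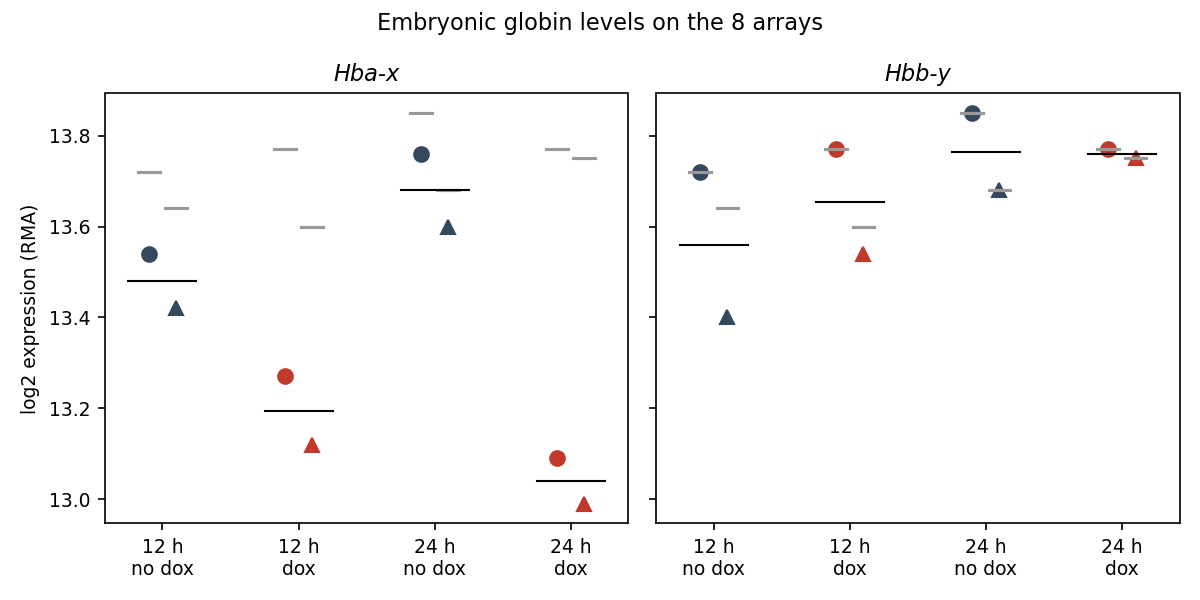
Log2 expression (vertical axis) of Hba-x and Hbb-y on each of the 8 arrays, by group (horizontal axis; dox is doxycycline). Circles are replicate 1 and triangles replicate 2, red marks doxycycline, black lines are group means and short grey lines give the brightest probe set of that array. Hba-x lies at 12.99 to 13.27 with doxycycline and at 13.42 to 13.76 without it, while Hbb-y lies on or near the grey lines in all groups.

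By count, without a replicate block, 0 of the 2 globins passed limma's test with Benjamini-Hochberg adjustment at 12 h, at 24 h or over both times. Of all probe sets 0.924%, 1.44% and 4.42% passed. At an unadjusted p under 0.05 the counts were 0 at 12 h and 1, Hba-x, at 24 h and over both times, against 8.85%, 11.4% and 15.6% of all probe sets. With an intensity trend in the variance model Hba-x passed at 24 h and over both times (adjusted p = 0.00807 and 0.0109). It did not pass at 24 h when only the 4 arrays of that time were fitted (adjusted p = 0.31). Leaving out replicate 2 without doxycycline at 24 h, the differences of Hba-x were -0.72 at 24 h and -0.46 over both times (adjusted p = 0.092 and 0.0849).

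The differences of the 2 genes can be set side by side within each replicate number, as a description with no test. Within replicate 1 and replicate 2, Hba-x differed by -0.27 and -0.30 at 12 h and by -0.67 and -0.61 at 24 h. Hbb-y differed by 0.05 and 0.14 at 12 h and by -0.08 and 0.07 at 24 h. The difference of Hba-x was thus below that of Hbb-y by 0.32 and 0.44 at 12 h and by 0.59 and 0.68 at 24 h. This comparison does not depend on how arrays were scaled to each other by a constant. Without doxycycline Hba-x lay 0.08 to 0.22 below the highest value of its array, and Hbb-y was the brightest probe set on 6 of the 8 arrays. Any limit at the top of the range on either gene would enter the comparison. The same holds for the correlation below, and such a limit was not tested. Over the 8 arrays the levels of the 2 genes correlated with r = 0.122, a description of arrays that share groups and replicate numbers. Both genes were lower on the replicate 2 array than on the replicate 1 array in each of the 4 groups. The mesenchyme list was higher there, and the endothelial, megakaryocyte and myeloid lists were lower. The part of a differing cell mixture in the globin levels was not tested.

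Between 12 h and 24 h the direction for Hba-x differed by treatment. Without doxycycline it was higher at 24 h in both replicates, by 0.22 and 0.18, and with doxycycline lower in both, by 0.18 and 0.13. Groups did not overlap in either comparison, as was so for 14.6% of probe sets that were higher without doxycycline and 20.5% that were lower with it. The fitted differences were 0.20 ± 0.14 and -0.16 ± 0.14 (limma adjusted p = 0.851 and 0.999). The difference between the doxycycline effects at 24 h and 12 h, which is the same quantity as the difference between these time effects, was -0.36 ± 0.20 with a 95% interval from -0.82 to 0.11 (limma adjusted p = 1). In that comparison 0 of 16348 probe sets passed limma's test and 505 had an unadjusted p under 0.05, Hba-x not among them.

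Hbb-y was higher at 24 h by 0.13 and 0.28 without doxycycline, and differed by 0 and 0.21 with it. Its fitted time differences were 0.21 ± 0.17 and 0.11 ± 0.17 (limma adjusted p = 0.87 and 0.999). Of the 2 globins, 0 passed in either time comparison, against 0.147% of probe sets without doxycycline and 0.184% with it, and 0 had an unadjusted p under 0.05, against 7.46% and 6.83%. The doxycycline effects on Hbb-y at the 2 times differed by -0.10 ± 0.23 (limma adjusted p = 1).

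Other probe sets at the top of the range show how levels there moved. The 163 probe sets with the highest means, from 11.37 upward, had a median absolute difference with doxycycline of 0.09 at 12 h, 0.09 at 24 h and 0.08 over both times, against 0.14, 0.15 and 0.12 over all probe sets. Among these 163 the difference of Hba-x was the 17th lowest at 12 h, the 8th at 24 h and the 10th over both times, and that of Hbb-y the 139th, 99th and 123rd. The other 6 of the 8 brightest probe sets, which include Actb, the glycolytic enzyme gene Aldoa, Pabpc1 for the poly(A)-binding protein and the translation elongation factor gene Eef2, differed by -0.09 to 0.06 at 24 h. Over both times 10 of the 163 passed, 7 lower and 3 higher. The 7 had means from 11.43 to 12.06, below the level of the globins, and included the haem enzyme gene Cpox, the carbonic anhydrase gene Car2 and the glycophorin gene Gypc.

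**Figure D2:**
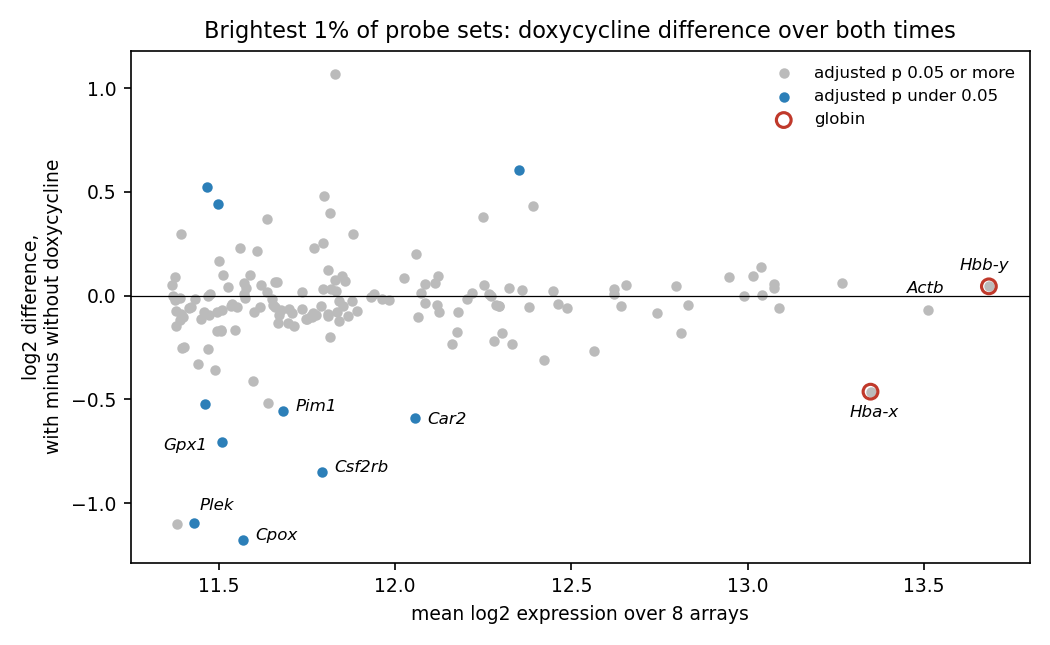
Mean log2 expression over the 8 arrays (horizontal axis) against the log2 difference with minus without doxycycline over both times (vertical axis) for the 163 brightest probe sets. Blue points passed limma's test at an adjusted p under 0.05 and red rings mark the globins. Hba-x at -0.46 stands below the other probe sets with a mean above 13, Hbb-y at 0.05 among them.

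Few regulators of globin genes passed limma's test, and those that did went in both directions. The counts varied with the array left out, as given at the end. Of 27 measured regulators, 1 rose and 1 fell at 12 h, against 0.593% and 0.33% of all probe sets, and 1 rose and 1 fell at 24 h, against 0.887% and 0.551%. Over both times 2 rose and 5 fell, against 2.61% and 1.81%. Their median difference over both times was -0.10, against -0.01 for all probe sets. Klf1, the erythroid factor that binds CACCC sequences of globin promoters, was 9.98 and 9.65 without and 8.75 and 8.53 with doxycycline at 12 h, and 10.22 and 9.94 without and 9.0 and 9.11 with it at 24 h. Samples with doxycycline lay below those without it at both times, as for 6.61% of all probe sets. Over both times Klf1 fell by 1.10 ± 0.12 (2.14-fold, limma adjusted p = 0.00214).

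Nfe2, Tal1, Cbfa2t3 and Ikzf1 of this list fell as well over both times. For Nfe2, whose product binds the beta-globin enhancers, the difference was -0.96 ± 0.16 (limma adjusted p = 0.0142). Tal1 and its partner gene Cbfa2t3, which encodes the corepressor ETO2, fell by 0.47 ± 0.09 and 0.61 ± 0.10, and Ikzf1, the zinc finger factor Ikaros, by 0.53 ± 0.10 (limma adjusted p = 0.0191, 0.0134 and 0.0194). Each of these 4 calls was lost with some array left out. That of Nfe2 was lost without replicate 2 with doxycycline at 24 h (adjusted p = 0.0548), and that of Cbfa2t3 without the same array or without replicate 1 with doxycycline at 12 h (0.0564 and 0.0531). Tal1 did not pass without any one of the 4 arrays with doxycycline or of the 2 untreated 12 h arrays (0.0569 to 0.0786). Ikzf1 did not pass without untreated replicate 2 at 12 h, replicate 1 with doxycycline at 12 h, or either array with doxycycline at 24 h (0.0604 to 0.0763). Gata1, the central erythroid GATA factor, differed by -0.70 ± 0.18 (limma adjusted p = 0.071) and, with the replicate number as a block, by -0.70 ± 0.10 (adjusted p = 0.00759). Myb, linked in human cells to the silencing of fetal globin, differed by -0.61 ± 0.16 over both times (limma adjusted p = 0.0869).

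Among repressors of embryonic globin, Sox6 rose. Sox6 encodes a SoxD factor that represses Hbb-y in the mouse. It was 6.34 and 6.74 without and 7.28 and 7.83 with doxycycline at 12 h, and 6.43 and 6.38 without and 6.98 and 7.26 with it at 24 h. Without doxycycline Sox6 was thus near the array medians of 6.40 to 6.61. All 4 samples with doxycycline lay above all 4 without it. The share of all probe sets that did so is not given here. For scale, 6.61% of probe sets were lower without overlap within both times. The rise over both times was 0.87 ± 0.16 (1.82-fold, limma adjusted p = 0.0195), while the differences of 1.02 ± 0.23 at 12 h and 0.72 ± 0.23 at 24 h did not pass on their own (adjusted p = 0.119 and 0.244). With the replicate number as a block the difference at 12 h passed (adjusted p = 0.0268). Without replicate 2 with doxycycline at 24 h the difference over both times was 0.84 and did not pass (adjusted p = 0.0708).

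Bcl11a, a repressor in the change to adult globin, differed by 0.51 ± 0.14 and Zbtb7a, the repressor also known as LRF, by -0.10 ± 0.09 (limma adjusted p = 0.0901 and 0.752). The levels of Bcl11a, 5.90 to 7.07, were near the array medians of 6.40 to 6.61. Lin28a, an RNA-binding protein gene of the family linked to fetal globin in human cells, rose by 1.90 ± 0.13 (limma adjusted p = 0.000595). Its samples lay at 7.43 to 8.50 without doxycycline and at 9.42 to 10.19 with it.

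The supply of haem is the other requirement for haemoglobin, and 12 of 18 measured genes of haem synthesis and iron supply fell over both times. At 12 h 5 fell and at 24 h 7 fell, against 1.81% over both times, 0.33% at 12 h and 0.551% at 24 h of all probe sets. With any 12 h array left out 0 passed at 12 h, and 0 passed at 24 h when one of the doxycycline arrays of that time was omitted. The median difference of the list over both times was -0.83. Slc25a37, the mitochondrial iron importer mitoferrin, fell by 1.49 ± 0.16, and Steap3, the ferrireductase of transferrin endosomes, by 1.42 ± 0.11 (limma adjusted p = 0.00214 and 0.000957). The haem pathway enzyme genes Cpox, Alad and Uros fell by 1.18 ± 0.11, 1.14 ± 0.13 and 0.99 ± 0.11, and the mitochondrial transporter gene Abcb10 by 1.04 ± 0.09 (adjusted p = 0.00119, 0.00312, 0.002 and 0.00119). Hmox1, which encodes the enzyme that degrades haem, was the 1 member that rose, by 0.71 ± 0.13 (adjusted p = 0.0186), and is named here after its value was seen. Its call was lost without any one of the 4 arrays with doxycycline (adjusted p = 0.0531 to 0.0663).

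Red cell membrane and maturation genes fell in 16 of 17 measured cases over both times, with 7 at 12 h and 9 at 24 h, against 1.81%, 0.33% and 0.551% of all probe sets. Called genes of the list, in either direction, numbered 8 at 12 h and 10 at 24 h, and 1 at 12 h without either untreated 12 h array or replicate 2 with doxycycline at 12 h, and 1 at 24 h without either array with doxycycline at 24 h. Trim10, Add2 and Kel fell by 1.69 ± 0.11, 1.56 ± 0.10 and 1.47 ± 0.11, and Tspan33 and Rhag by 1.21 ± 0.11 and 1.11 ± 0.09 (limma adjusted p = 0.000337, 0.000321, 0.000957, 0.00119 and 0.00107). Add2 encodes an adducin of the red cell skeleton, and Kel and Rhag encode blood group proteins of its membrane. The 1 gene that rose was the water channel Aqp1, by 3.38 ± 0.20 (limma adjusted p = 0.000321), which endothelial cells express as well. The median of the list was -1.11, against -0.46 for Hba-x and 0.05 for Hbb-y. Tal1 stands in this list and among the regulators.

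**Figure D3:**
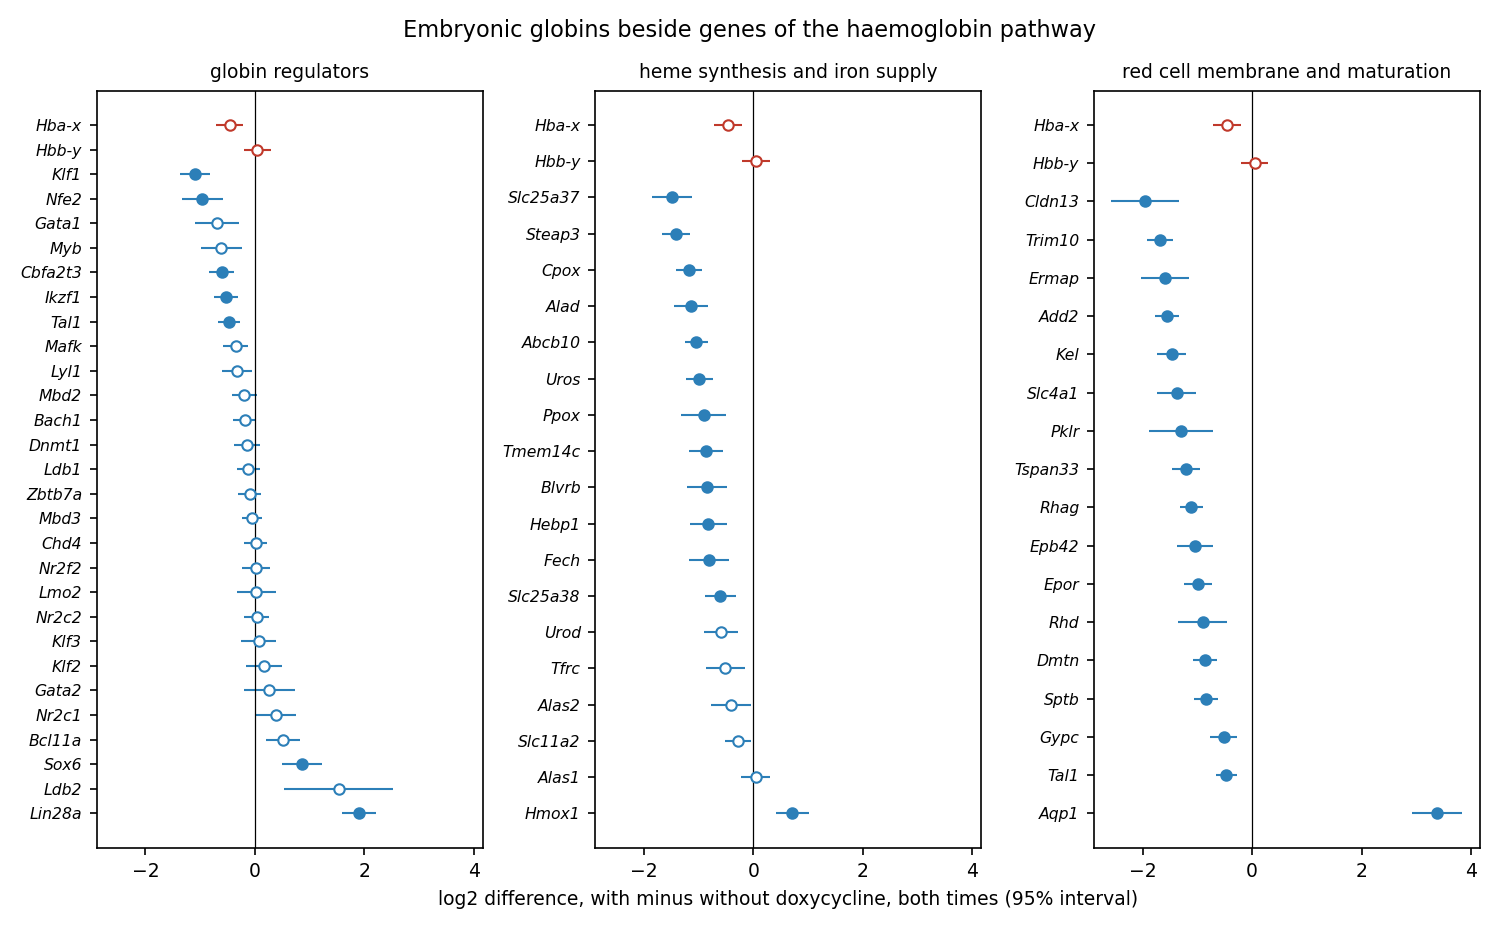
Log2 difference with minus without doxycycline over both times (horizontal axis, 95% interval) for Hba-x and Hbb-y in red and, in blue, the measured genes of 3 lists (vertical axis). Filled points passed limma's test at an adjusted p under 0.05. Most haem and red cell genes lie further below 0 than Hba-x, and Hbb-y lies at 0.05.

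Markers of other cell types moved with doxycycline beside these groups. Of 14 endothelial markers 7 rose over both times and 0 fell, against 2.61% and 1.81% of all probe sets. Their mean level was 7.24 to 8.54 on the arrays without doxycycline and 8.96 to 9.42 on those with it. Of 10 myeloid markers 3 fell, with a mean level of 5.66 to 7.21 without and 5.35 to 6.13 with doxycycline. Of 10 megakaryocyte markers 1, Plek, fell, with mean levels of 7.56 to 9.36 and 7.09 to 8.65. The calls of Plek, of the myeloid gene Ncf1 and of the endothelial gene Pecam1 were each lost with some array left out. None of 10 mesenchyme markers passed. The part of a changed cell mixture in the values of the globins and of the erythroid genes was not tested.

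Genes whose levels ran most like those of the globins were sought among 7590 named probe sets with a mean at or above the median. For Hba-x the 3 highest correlations over the 8 arrays were with Urod (r = 0.983), an enzyme gene of haem synthesis, Arhgdib (r = 0.983) and Reln (r = 0.981), which encodes the secreted protein reelin. Urod was 10.62 and 10.28 without and 10.18 and 10.00 with doxycycline at 12 h, and 10.90 and 10.63 without and 9.96 and 9.93 with it at 24 h. As for Hba-x, its lowest samples were those with doxycycline at 24 h, and its differences of -0.36 and -0.82 did not pass at 12 h or 24 h (limma adjusted p = 0.656 and 0.0779). With the replicate number as a block the difference of Urod at 24 h passed (adjusted p = 0.0199). Arhgdib differed by -0.51 at 12 h and fell by 0.88 at 24 h (adjusted p = 0.27 and 0.0429), a call that was lost with any of the 8 arrays left out (adjusted p = 0.0558 to 0.257).

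For Hbb-y the 3 highest correlations were with Vdac1 (r = 0.947), a channel gene of the outer mitochondrial membrane, Rida (r = 0.941) and Ubxn2a (r = 0.935). None of these 3 passed with doxycycline at either time, with differences of -0.05 to 0.13. Klf1 correlated with Hba-x at r = 0.873 and with Hbb-y at r = 0.155 over the same arrays. With 8 arrays that share groups and replicate numbers, and the best of many probe sets chosen, these values describe likeness only.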

How the data were processed

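The deposited values are log2 expression of 16348 probe sets on 8 arrays. RMA in Affymetrix Power Tools produced them, per the submitters' processing notes, by background correction, between-array normalization and probe summary; versions, genome build and filters are not given in the sources used here. Saturation could not be read directly, since no scanner file was used here. Groups and replicate numbers came from sample titles, with 0 columns unmapped.

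The platform annotation gave 1 symbol to 14785 probe sets, several to 950 and none to 613. A linear model per probe set was fitted in R 4.3.3 with lmFit and eBayes of limma 3.58.1, as group means (4 residual degrees of freedom) or terms for doxycycline and time (5), without a filter. Benjamini-Hochberg adjustment covered all probe sets, with a threshold of 0.05. The pipeline was tested on simulated data. Array number limits the precision.

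Deviations from group means of same-numbered samples correlated with r = 0.371 at 12 h and 0.428 at 24 h. The fits and counts in the text have no replicate term except where a replicate block is named. With that block over both times, 1 globin, Hba-x, and 1231 probe sets passed, against 0 and 723 without it. Globin members, lists and tests were chosen with earlier results of these data known. Named genes were the globins, Sox7, Itga2b, Cd34, up to 6 passing genes per list by smallest p, 6 fixed regulators and the 3 probe sets most like each globin.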

Additional observations from a re-analysis of the deposited data

How the results depend on the processing

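Hba-x stayed below 0 with doxycycline at 12 h, at 24 h and over both times under all alternatives run, including each left-out array, with differences from -0.36 to -0.18 at 12 h, -0.72 to -0.56 at 24 h and -0.53 to -0.40 over both times. Over both times 1 globin, Hba-x, passed with arrays centred on their medians (adjusted p = 0.0349), with an intensity trend (0.0109), without the dimmest 33.3% of probe sets (0.0322) and with the replicate block (0.0301), and 0 passed after a repeated quantile normalization (0.0835). At 24 h 1 passed with the trend and with the replicate block. No globin passed with any array left out, where the adjusted p of Hba-x was 0.092 to 0.402 at 24 h and 0.0709 to 0.179 over both times. Hbb-y passed under no alternative run, and its fitted difference took either sign when arrays were left out. The cause of these changes of call was not tested.

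Counts over all probe sets moved more. Against 151 at 12 h, 235 at 24 h, 723 over both times, 24 for time without doxycycline and 30 with it, the replicate block gave 467, 677, 1231, 130 and 123. Repeated quantile normalization gave 241 at 12 h, 415 at 24 h, and 61 and 49 for time. Leaving out the dimmest 33.3%, which tests fewer probe sets, gave 239, 367, 51 and 58 in that order, and the intensity trend 44 and 62 for time. Fitting only the groups compared, with fewer arrays, gave 0 at 12 h, 126 at 24 h and 1 and 0 for time. With 1 array left out the counts ran from 7 to 201, 4 to 297, 377 to 730, 0 to 36 and 0 to 29, and the lone sample left in a group is taken to vary as the other groups do.

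Called regulators, haem genes and red cell genes numbered 2, 5 and 8 at 12 h and 2, 7 and 10 at 24 h. With the replicate block there were 8 regulators and 14 red cell genes at 12 h, and 5 regulators and 13 haem genes at 24 h. Fitting only the groups compared gave 0, 0 and 0 at 12 h and 1, 1 and 6 at 24 h. With 1 array left out they ran from 0 to 2, 0 to 5 and 1 to 9 at 12 h, 0 to 2, 0 to 3 and 1 to 7 at 24 h, and 2 to 7, 7 to 14 and 13 to 15 over both times. Over both times the replicate block brought Hba-x, Gata1, Urod and Reln past the threshold and ended the call of 0 named genes. Among the other named genes 25 differences lost and 63 gained a call under alternatives that kept all arrays or all those compared, 182 lost and 7 gained one with an array left out, and 0 turned direction while called. Neither globin had a second probe set with 1 symbol, so that alternative gave no value. How far levels at the top of the array's range limit the change that Hbb-y or Hba-x can show was not tested.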

Other observations

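Hmox1, the haem oxygenase gene, was looked at after its values were seen because it moved against the other haem genes. It rose between 12 h and 24 h by 1.90 ± 0.20 without doxycycline and by 1.89 ± 0.20 with it (limma adjusted p = 0.0224 and 0.0211). In these comparisons 23 and 26 of 16348 probe sets rose. Both calls were lost with some array left out, and the call with doxycycline also when only the groups compared were fitted. Alas2, the erythroid enzyme gene that starts haem synthesis, was likewise outside the naming rule and differed by -0.41 ± 0.16 with doxycycline over both times (adjusted p = 0.252), at levels of 11.12 to 12.10.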
